A study of Mus musculus with 6 samples.

Results

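Mitral and tufted cells (M/T cells), the output neurons of the olfactory bulb, were described here through 7 genes that mark them, Cdhr1, Eomes, Tbx21, Tbr1, Slc17a7, Slc17a6 and Reln. These were 7 of the 18560 genes in the raw count table and were taken by name, not by a rule on their values. Single-cell RNA sequencing of the mouse olfactory bulb gave 52549 barcodes in 6 libraries, of which 51426 carried a cluster of the study's first annotation and 21746 a neuronal cluster of its second. Of the 18 neuronal clusters, 3 were named M/T cells by the study, with 90 cells in n15-M/TC-1, 116 in n16-M/TC-2 and 927 in n17-M/TC-3, or 1133 cells in all. All animals were adult C57BL/6NJ mice of 14 weeks. There were 2 libraries of control mice with no manipulation, 2 of naris occluded mice (1 nostril closed for 6 weeks, which deprives the bulb of sensory input) and 2 of olfactory trained mice (6 weeks of odor discrimination learning). Each library was a pool of 3 mice, so the spread between libraries is that between pools, and the sexes were split between them, with males in replicate 1 and females in replicate 2. The study's methods do not settle whether control tissue came from naive mice or from the open side of occluded mice, and the dissection took along some olfactory epithelium.

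Mitral and tufted cells receive the axons of olfactory sensory neurons in the glomeruli and send glutamatergic axons to the olfactory cortex, whereas most other bulb neurons are inhibitory and release GABA. Their identity is set up by T-box transcription factors (Tbr1, Eomes, also called Tbr2, and Tbx21, also called Tbet), their glutamate is loaded into synaptic vesicles by the transporters VGLUT1 (Slc17a7) and VGLUT2 (Slc17a6), and they display the photoreceptor-type cadherin Cdhr1 and secrete the matrix glycoprotein reelin (Reln). Tufted and external tufted cells lie closer to the glomeruli than mitral cells and share much of this gene set with them.

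The genes lie on 6 chromosomes of the GRCm38.p6 assembly: Cdhr1 at chr14:37077849-37098347, Eomes at chr9:118478186-118486132, Tbx21 at chr11:97098007-97115331, Tbr1 at chr2:61802863-61814114, Slc17a7 at chr7:45163921-45176139, Slc17a6 at chr7:51621830-51671126 and Reln at chr5:21884454-22344705. Each spans exons and introns of a protein-coding gene. The 250 bases upstream of the RefSeq start are shown for 3 members, 1 for each pattern over the M/T clusters described below (high in n17, high in n16, low in n16), Cdhr1 (chr14:37098348-37098597, minus strand), Eomes (chr9:118477939-118478188, plus strand) and Reln (chr5:22344706-22344955, minus strand). They run 5′ to 3′ on the strand of the gene, and capitals mark matches to any of 3 motifs, each searched on both strands. The first is the T-box motif GGTGTG. The second is the CCAAT box, searched by the letters of its name. The third is the Sp1 box GGGCGG.
Cdhr1: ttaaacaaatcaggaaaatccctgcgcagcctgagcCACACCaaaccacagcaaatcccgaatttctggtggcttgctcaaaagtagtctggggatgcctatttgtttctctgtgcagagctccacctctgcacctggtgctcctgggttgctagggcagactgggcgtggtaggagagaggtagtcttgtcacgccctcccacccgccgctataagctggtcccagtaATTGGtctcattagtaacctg
Eomes: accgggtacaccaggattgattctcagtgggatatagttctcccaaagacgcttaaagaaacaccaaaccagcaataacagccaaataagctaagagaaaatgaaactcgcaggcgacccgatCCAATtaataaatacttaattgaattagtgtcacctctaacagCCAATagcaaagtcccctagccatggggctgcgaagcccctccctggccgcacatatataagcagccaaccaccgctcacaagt
Reln: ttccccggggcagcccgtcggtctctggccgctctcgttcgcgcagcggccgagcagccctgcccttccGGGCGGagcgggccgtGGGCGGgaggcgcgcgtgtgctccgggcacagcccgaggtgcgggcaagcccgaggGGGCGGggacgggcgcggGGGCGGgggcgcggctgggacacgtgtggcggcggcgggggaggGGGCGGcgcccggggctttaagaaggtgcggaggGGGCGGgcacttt
The T-box letters occurred once upstream of Cdhr1, in reverse, and upstream of none of the other members, against 16.3% of 32851 RefSeq promoters of the same length. The Sp1 box occurred upstream of 5 members (Tbx21, Tbr1, Slc17a7, Slc17a6 and Reln) and in 32.7% of promoters, the CCAAT box upstream of 3 (Cdhr1, Eomes and Tbx21) and in 33.8%, the E-box CAGATG upstream of 1 (Slc17a6, at the second of its listed starts) and in 14.4%, and the TATA box TATAAA upstream of none and in 12.4%. The Reln window stood apart in composition, with 80% G and C, 37 CpG dinucleotides and 6 Sp1 boxes, and only 2.2% of promoters held as many CpGs. The other members had between 3 and 16 CpGs in such a window. No marked letters belonged to more than 1 motif, and a match is a description of letters, not of a bound site.

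Levels are given as counts-per-million (CPM), the unique molecular identifiers (UMIs, 1 per captured transcript) of a gene summed over the cells of a cluster in a library, divided by all UMIs of those cells. Libraries held between 11841160 and 17065083 UMIs, and the M/T cells between 186577 and 461764, with a median of 864 to 1152 UMIs per M/T cell. Between 65 and 144 barcode sequences were shared by any 2 libraries, 0.969% to 1.57% of the smaller library. Because the clusters were made from these same genes, differences between clusters are described by how many of the 6 libraries show them, without a test. Values per library are listed in the order control 1, control 2, naris occluded 1, naris occluded 2, olfactory trained 1 and olfactory trained 2.

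The members were concentrated in the 3 M/T clusters, which follows in part from how the clusters were made and named, and each cluster showed its own subset of the genes. Among M/T cells, 91.2% had a UMI of at least 1 member, 74.8% of at least 2 and 49.7% of at least 3. Among the 20613 other neurons these shares were 10.4%, 0.665% and 0.0388%, and no cell had 4. All 7 members were higher in M/T cells than in other neurons in 6 of 6 libraries, as were 12.01% of all 18057 genes with a UMI in neurons and 20.6% of the 9463 that averaged at least 10 CPM. The lower shares were 14.8% and 20.4%. By UMIs, the M/T cells held 69.0% of all Cdhr1 UMIs of annotated bulb cells, 63.3% of Slc17a6, 59.3% of Eomes, 59.1% of Slc17a7, 56.8% of Reln, 47.8% of Tbr1 and 32.8% of Tbx21. Of the other 2 genes listed here as M/T markers, Doc2g and Shisa3, n17 had 671 and 237 CPM and n15 had 399 and 27.4 CPM. In n16 they were at 74.7 and 3.96 CPM, against 168 and 3.35 CPM in the other neurons, while other projection-neuron genes described below, among them Cck and Olfm1, were highest in n16.

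**Figure D1:**
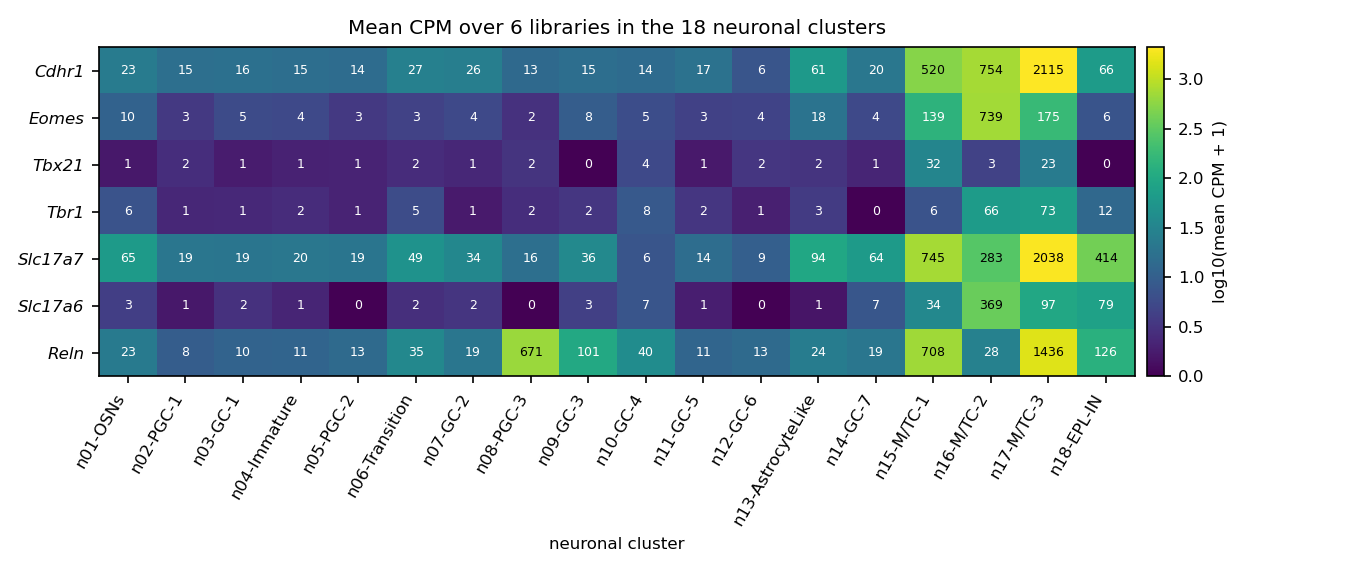
Level of each member in the 18 neuronal clusters, as the mean CPM over 6 libraries on a log color scale. The 3 M/T clusters stand out for most members, Reln is also high in n08-PGC-3 (671 CPM) and low in n16-M/TC-2 (27.9 CPM), and Slc17a7 is also seen in n18-EPL-IN (414 CPM).

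Cdhr1, a cadherin, averaged 520 CPM or more in each of the 3 M/T clusters. In n17 it stood at 2346, 2372, 1708, 2084, 2277 and 1902 CPM, a mean of 2115 ± 267 CPM (SD, n = 6). In n15 the libraries gave 901, 567, 321, 452, 556 and 323 CPM, and in n16 they gave 975, 836, 532, 287, 396 and 1500 CPM. Thus n17 was above both other clusters in 6 of 6 libraries, while n15 and n16 overlapped (n16 higher in 4 of 6). The highest n16 value, 1500 CPM, came from 8 cells of olfactory trained 2. The next neuronal cluster, n18-EPL-IN, had 66.4 ± 60.3 CPM and lay below n15 in 6 of 6 libraries. Between n18 and the following cluster, n13-AstrocyteLike at 61.2 ± 27.1 CPM, the order did not exceed the spread. With each cell thinned to 500 UMIs, a share of 57.8% of n17 cells had a Cdhr1 UMI, against 26.0% in n16, 20.7% in n15 and 0.915% in n08-PGC-3.

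Eomes, the T-box factor of the excitatory cells near the glomeruli, peaked in n16. Its CPM there was 832, 750, 584, 1018, 980 and 273, the last value resting on 2 UMIs in 8 cells. In n17 the libraries gave 160, 123, 295, 217, 161 and 92.5 CPM, and in n15 they gave 139, 179, 96.3, 0, 167 and 252 CPM. The level in n16 (739 ± 278 CPM) exceeded that in n17 (175 ± 72.5 CPM) and in n15 (139 ± 85.1 CPM) in 6 of 6 libraries, and n17 and n15 were level, with 3 libraries each way. All other neuronal clusters averaged below 20 CPM, led by n13-AstrocyteLike at 17.5 ± 13.8 CPM.

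Tbr1, which acts in early-born projection neurons, was found in n17 and n16 and nearly absent from n15. In n17 it was 74.0, 63.4, 64.5, 60.6, 83.1 and 92.5 CPM in the sums (mean 73.0), and 34.98 CPM when CPM was taken cell by cell and averaged, so that deep and shallow cells counted alike. In n16 the values were 0, 42.9, 17.2, 157, 41.7 and 136 CPM, from 12 UMIs in all, and overlapped those of n17. In n15 a single UMI was counted in 90 cells, which gives 6.59 CPM with a 95% Poisson interval of 0.167 to 36.7 CPM for counting error alone. That interval lies below the pooled n17 interval of 58.1 to 86.1 CPM.

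Tbx21, a T-box factor of mature M/T cells, was sparse throughout. It had 38 UMIs in n17, 6 in n15 and 1 in n16, and its pooled levels of 26.0, 39.5 and 4.16 CPM had counting intervals of 18.4 to 35.6, 14.5 to 86.1 and 0.105 to 23.2 CPM. All 6 libraries had Tbx21 in n17, between 11.1 and 53.7 CPM, whereas the n15 UMIs came from control 2 (4) and olfactory trained 2 (2) and the n16 UMI from olfactory trained 1. The order of n15 and n17 could not be told at this depth. No Tbx21 UMI was found in the 161 cells of n18-EPL-IN, which allows a level of up to 17.5 CPM (3 counts, counting error only).

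The vesicular glutamate transporters ordered the M/T clusters differently. Slc17a7 in n17 reached 2238, 2469, 1719, 1751, 2066 and 1988 CPM (mean 2038 ± 287). It was 901, 717, 578, 566, 917 and 791 CPM in n15 and 381, 193, 154, 78.3, 209 and 682 CPM in n16, so the order n17, n15, n16 held in 6 of 6 libraries. Slc17a6 was highest in n16 instead. In n16 it was 595, 279, 223, 209, 229 and 682 CPM (mean 369 ± 211), in n17 92.5, 101, 75.2, 126, 94.2 and 92.5 CPM (59.5 CPM averaged cell by cell), and in n15 only 4 UMIs were counted (26.4 CPM, counting interval 7.18 to 67.5 CPM). The level in n16 was above that in n17, and n17 above n15, in 6 of 6 libraries. The n16 values of olfactory trained 2, the highest there for both transporters, came from 8 cells. Pooled over libraries, n16 had 312 CPM of Slc17a6 and 216 CPM of Slc17a7. Of the other clusters, n18-EPL-IN had 79.1 ± 145 CPM of Slc17a6, in the range of n15 and n17, but from 13 UMIs, 10 of them from naris occluded 1. In n05-PGC-2, n08-PGC-3 and n12-GC-6 there were 0 UMIs (limits of 3.10, 6.22 and 3.56 CPM). Within n16, 44 cells had a Slc17a6 UMI, and 11 of them also had Slc17a7 (25%), against 15 of the other 72 (20.8%). The Slc17a6 cells were deeper (median 2226 against 926 UMIs), and per UMI their Slc17a7 was 161 CPM against 306 CPM.

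Reln was high in n17 and n15 and low in n16. In n17 it was 1449, 1628, 1265, 1554, 1402 and 1321 CPM (mean 1436 ± 138), and in n15 831, 537, 546, 905, 639 and 791 CPM (mean 708 ± 156). In n16 the values were 47.6, 21.4, 51.5, 26.1, 20.9 and 0 CPM, from 8 UMIs (mean 27.9 CPM, or 50.03 CPM averaged cell by cell). Both other M/T clusters exceeded n16 in 6 of 6 libraries, and n17 exceeded n15 in 6 of 6. Reln in n16 did not differ beyond its spread from n13-AstrocyteLike (23.9 ± 12.8 CPM), where it was higher in n16 in 3 libraries and lower in 3.

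**Figure D2:**
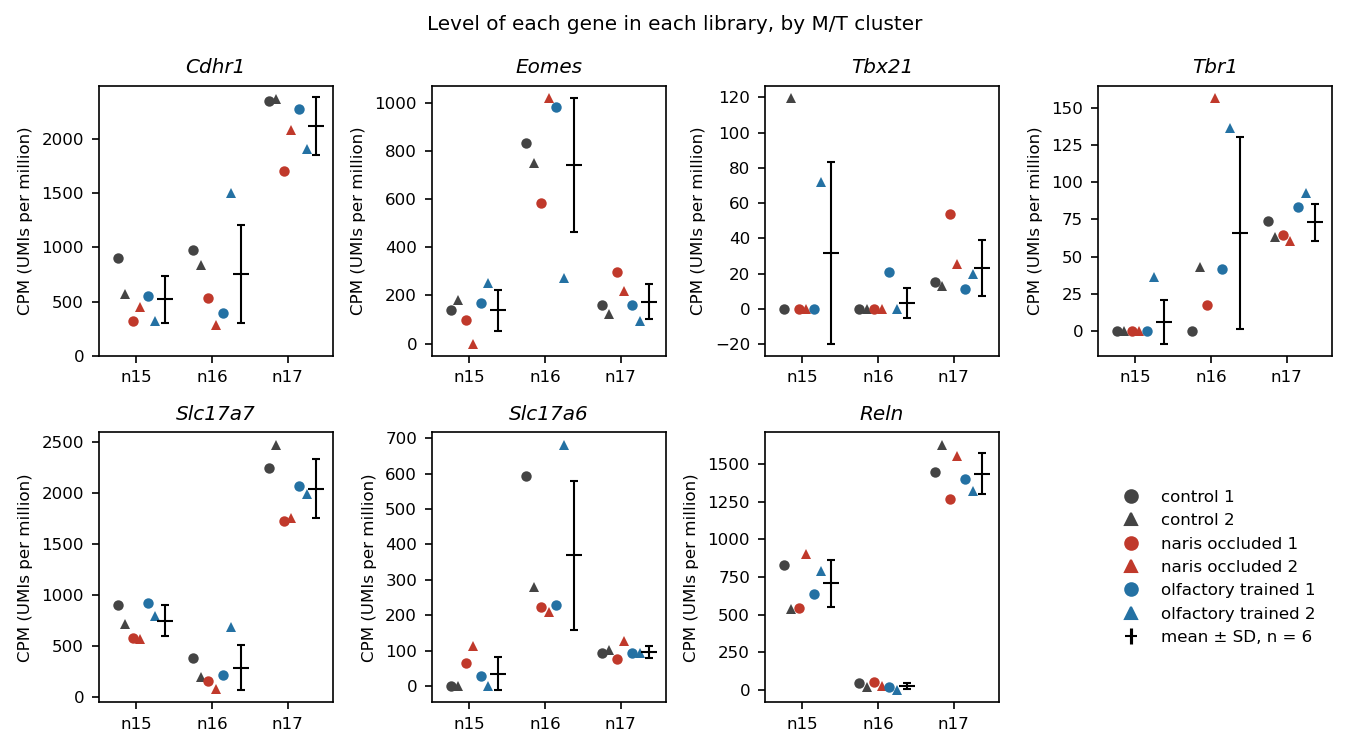
CPM of each member in n15, n16 and n17, with 1 point per library colored by condition and the mean ± SD over 6 libraries. Eomes and Slc17a6 are highest in n16, Cdhr1, Slc17a7 and Reln in n17, and the conditions intermix in most panels.

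The large cluster n17 held cells from different clusters of the study's first annotation, in which bulb cells were clustered before neurons were separated. Of its 927 cells, 100 had been placed in N14 and 776 in N15. The N14 cells were deep (median 5175 UMIs, 6.31% mitochondrial) and the N15 cells shallow (median 823 UMIs, 16.9% mitochondrial), so depth and RNA quality move with the split and their part in it was not tested. Of the 90 cells of n15, 88 came from N14. The 116 cells of n16 included 47 from N15, 42 from N14 and 14 from N12. In n16, too, the members differed between these. Eomes was 1060 ± 227 CPM in the N14 cells (SD over the 5 libraries that had any), which held 172 of its UMIs, and 341 ± 234 CPM in the N15 cells, while Cdhr1 was 476 ± 280 and 1333 ± 481 CPM. Medians were 3196 and 745 UMIs per cell.

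Eomes, Tbr1 and Slc17a6 were higher in the N14 cells of n17, and Cdhr1, Slc17a7 and Reln in the N15 cells, each in 6 of 6 libraries. Tbr1 averaged 160 ± 67.7 CPM in N14 cells and 21.4 ± 14.1 CPM in N15 cells, a 7.48-fold difference. Slc17a6 was 177 ± 45.0 against 49.97 ± 9.52 CPM (3.54-fold) and Eomes 285 ± 92.9 against 91.7 ± 29.8 CPM (3.11-fold). For Reln the N15 cells had 1943 ± 278 CPM and the N14 cells 797 ± 267 CPM (2.44-fold). Slc17a7 had 2723 ± 271 against 1225 ± 473 CPM (2.22-fold) and Cdhr1 2712 ± 337 against 1473 ± 309 CPM (1.84-fold). Tbx21 was higher in N14 cells in 4 of 6 libraries, at 31.0 ± 17.4 against 18.4 ± 14.045 CPM. The N14 cells made up 26.5% and 31.9% of n17 UMIs for control 1 and 2, 67.5% and 50.7% for the occluded pair and 30.6% and 40.8% for the trained pair, so the makeup of n17 differed between the conditions compared below.

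**Figure D3:**
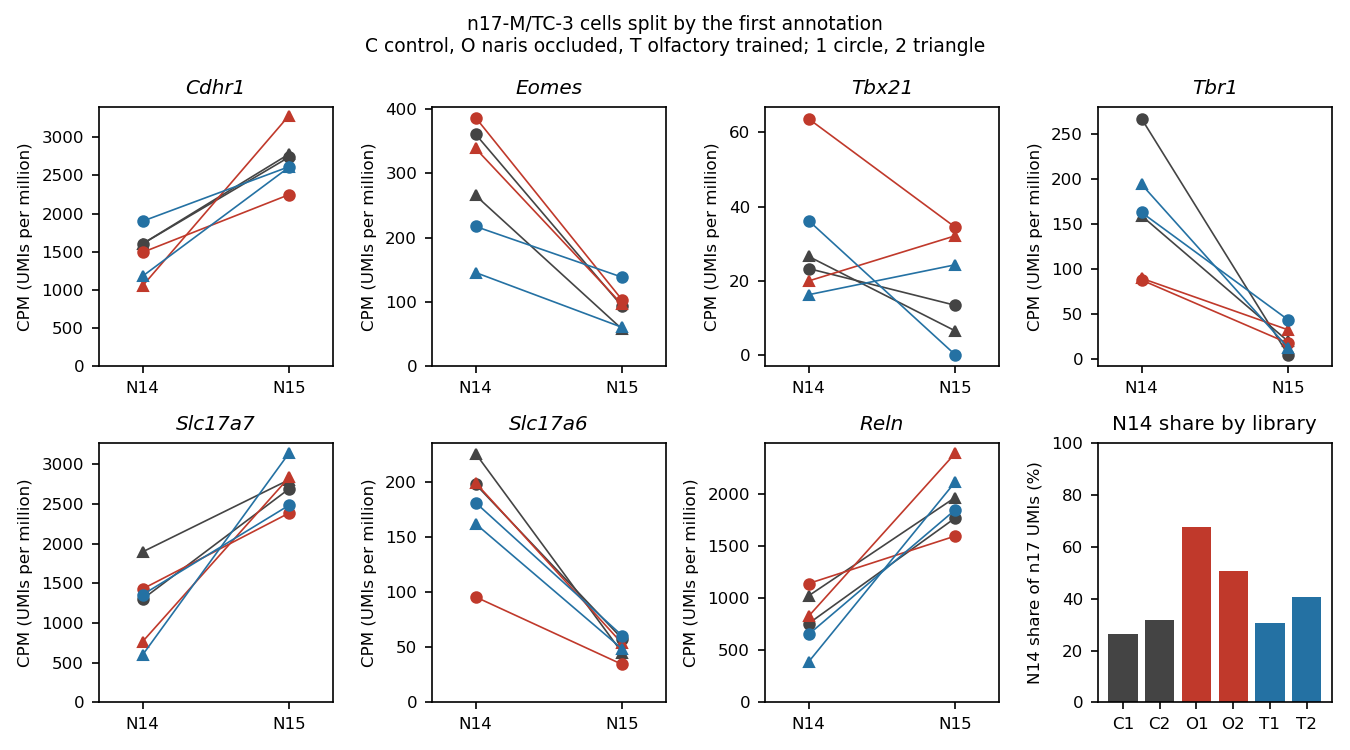
CPM of the 7 members in n17-M/TC-3 cells placed in N14 or N15 by the first annotation, with 1 joined pair of points per library on a linear axis, and in the last panel bars of the N14 share of n17 UMIs. Lines rise toward N14 for Eomes, Tbr1 and Slc17a6 and toward N15 for Cdhr1, Slc17a7 and Reln in all 6 libraries.

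In single cells, which members were found together differed between the clusters. Of 776 M/T cells with a Cdhr1 UMI and 796 with Slc17a7, 625 had both. Eomes was found in 193 M/T cells, and 105 of these (54.4%) also had Reln, against 60.5% of the cells without Eomes. Within n17, 75.8% of Eomes cells had Reln, against 64.2% of the others. In n16 Reln was rare with and without Eomes, in 2 of 52 Eomes cells (3.85%) and 7.81% of the others. Within n16, 27 of 52 Eomes cells (51.9%) had Slc17a6, against 26.6% of the cells without Eomes, and 11 of those 52 (21.2%) had Tbr1, against 0 of the others. Cells with Eomes UMIs were also deeper, with medians of 2004 UMIs in n16 and 1636.5 in n17, against 1092.5 and 865 over each whole cluster. A deeper cell shows more of every gene. By CPM, Eomes was higher in the N14 cells of n17 and Reln in the N15 cells, as given above.

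Outside the M/T clusters, Reln and Slc17a7 had high levels in other neuronal clusters. Reln in n08-PGC-3, periglomerular interneurons of the study's annotation, was 630, 758, 752, 671, 541 and 676 CPM (mean 671 ± 80.9). This was in the range of n15 (higher in n15 in 4 of 6 libraries) and above n16 in 6 of 6. The Reln cells of n08 had an inhibitory profile. Of 174 with a Reln UMI, 85.6% had Gad1, which makes GABA, and 2.87% had Cdhr1, while of the 105 cells without Reln 67.6% had Gad1. The Reln cells were deeper (medians of 1941 and 1259 UMIs per cell), and per UMI their Gad1 was 1140 CPM against 1195 CPM in the cells without. Gad2, which also makes GABA, was found in 23.6% and 27.6% (153 and 215 CPM) and Slc32a1, the vesicular GABA transporter, in 42.5% and 31.4% (299.9 and 269 CPM). Reln was also at 126 ± 96.8 CPM in n18-EPL-IN (22 UMIs in 11 cells) and 101 ± 49.9 CPM in n09-GC-3 (36 UMIs in 33 cells), above its mean of 29.5 CPM over other neurons. The other members were low in n08, with 7 Cdhr1 and 9 Slc17a7 UMIs and 0 to 1 UMI of each of the rest.

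Slc17a7 in n18-EPL-IN, interneurons of the external plexiform layer by the study's annotation, was 150, 381, 332, 702, 510 and 408 CPM (mean 414 ± 184) from 71 UMIs in 28 of 161 cells. The 28 cells differed from the remaining 133 in their inhibitory genes. Slc32a1 was found in 3 of the 28 (10.7%) and in 78.2% of the others, and Gad1 in 28.6% and 66.9%, at medians of 939 and 797 UMIs per cell. Of the 28, 2 had Cdhr1 (7.14%) and 2 had Reln (7.14%), against 4.51% and 6.77% of the others.

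**Figure D4:**
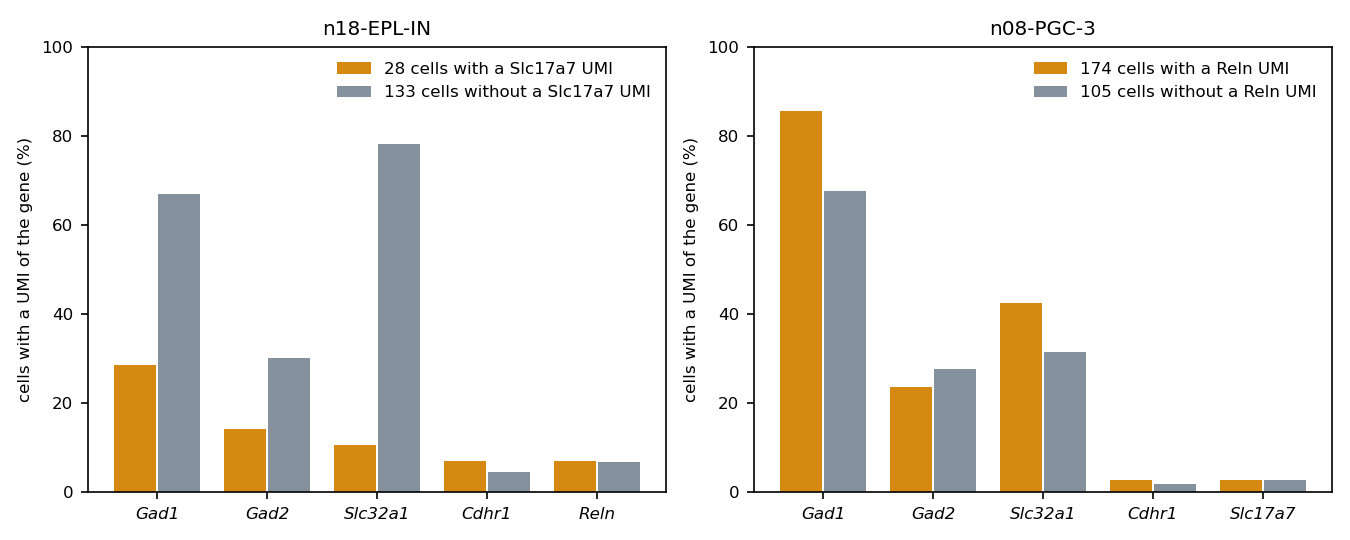
Percent of cells with a UMI of other genes among cells with and without Slc17a7 in n18-EPL-IN and with and without Reln in n08-PGC-3. In n18 the Slc17a7 cells less often had Slc32a1 (10.7% against 78.2%), and in n08 the Reln cells more often had Gad1 (85.6% against 67.6%) but less often Gad2 (23.6% against 27.6%), in cells of unequal depth (medians of 1941 and 1259 UMIs).

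Ranked over the 18 neuronal clusters by Pearson's r of log2(mean CPM + 1), among genes with at least 50 CPM in 1 cluster, 3 genes are given for each member. The r is a description over 18 points that share libraries. Nearest to Cdhr1 were Nmb, the bombesin-like peptide neuromedin B (r = 0.951), Tmem163 (r = 0.943) and Adcyap1, the peptide PACAP (r = 0.940). Eomes went with Nmb (r = 0.962), the transcription factor Tfap2c (0.956) and Hapln3 (0.943), and Nmb reached 2321 CPM in n16 against 840 in n17 and 447 in n15. For Slc17a7 the genes were Dkkl1 (0.963), Adcyap1 (0.948) and the synaptic vesicle protein Sv2b (0.941). For Slc17a6 they were Tmem163 (0.916), Cck, the peptide cholecystokinin (0.910), and Wbscr17 (0.907). Tbx21 was followed by Npr1, a natriuretic peptide receptor (0.901), Kcnk15 (0.892) and Ttpal (0.883). Tbr1 went with Chst8 (0.864), Slc17a6 (0.832) and Cdhr1 (0.829), and Reln with Cabp1 (0.857), Unc5d (0.843) and Gm2694 (0.837). Not all of these were highest in M/T clusters. Gm2694 was at 899 CPM in n08-PGC-3, against 97.4, 35.6 and 95.6 in n15, n16 and n17, and Unc5d was highest of the 5 clusters compared in n18-EPL-IN (118 CPM). Among the members themselves Cdhr1 ran with Eomes (r = 0.926) and Slc17a7 (0.918), and Eomes with Reln less (0.455). The members were taken as M/T markers, so such an r mostly sets the M/T clusters against the rest. Between M/T clusters the order differed, with Cdhr1 and Eomes at 2115 and 175 CPM in n17 and 754 and 739 CPM in n16.

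Other projection-neuron genes also separated the M/T clusters. Of 17 effector genes of projection neurons (peptides, guidance and cytoskeletal proteins), 16 were higher in M/T cells than in other neurons in 6 of 6 libraries, with a median 11.1-fold ratio. Among them Cck was 3923 CPM in n16, 2706 in n17 and 1345 in n15, Olfm1 3512, 2161 and 623 CPM, and Ntng1 33.4, 885 and 1711 CPM, so that n16 was highest for Cck and Olfm1 and lowest for Ntng1. Of 15 transcription factors of projection neurons, 9 were higher in M/T cells in 6 of 6 libraries and 1 was lower (Lmo3, 0.358-fold). Neurod1, a proneural factor, was 523 CPM in n16, against 29.7 in n17 and 38.6 in n15. Of the T-box family, 12 of 17 genes were in the table, and Eomes, Tbx21 and Tbr1 were the 3 of these that were higher in M/T cells in 6 of 6 libraries. Another 4 were higher in 0 of 6 libraries, at 0 CPM in M/T cells and 0 to 0.978 CPM in other neurons, so ties at 0 are among them. Of all genes with a UMI in neurons 12.01% were higher and 14.8% lower.

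Of 18 genes that act in reelin signaling, 4 were higher in M/T cells in 6 of 6 libraries and 6 were lower, where 20.6% and 20.4% of all genes of at least 10 CPM were, so the share that was higher was near the background. The highest in M/T cells were Gsk3b, a kinase, at 290 CPM, Pafah1b1, the dynein regulator LIS1, at 282 CPM, Cdk5r1, the activator of a neuronal kinase, at 257 CPM and Vldlr at 158 CPM. The reelin receptor Vldlr stood at 733 CPM in n16, the cluster with the least Reln, against 76.7 in n17 and 80.0 in n15. The intracellular adaptor Dab1 stood at 96.9 CPM in n16, 25.2 in n17 and 38.1 in n15. The other classic receptor, Lrp8, was at 18.1 CPM in n16, 42.7 in n17 and 44.8 in n15. Of the other glutamate genes, the glutamine transporter Slc38a1 averaged 589 CPM in M/T cells and was higher there in 6 of 6 libraries.

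Markers of other cells were also seen in the M/T cells. Of 10 interneuron markers, 0 were higher and 10 lower than in other neurons in 6 of 6 libraries, and their summed level was 620 to 1372 CPM in the 6 libraries. By cluster they summed to 452 to 2079 CPM in n15, 626 to 1500 in n16 and 564 to 1394 in n17. Of 7 macroglia markers 5 were higher and 1 lower (median 1.70-fold), summing to 2133 to 3170 CPM. Of 6 immune, vessel and blood markers 2 were higher (median 2.22-fold), summing to 246 to 954 CPM. By cluster the latter summed to 216 to 1584 CPM in n15, 0 to 235 in n16 and 283 to 1095 in n17. Among the neuronal clusters C1qa (242 CPM) and Cldn5 (402 CPM) were highest in n15. Of 7 sensory neuron markers, 1 was higher and 4 were lower, summing to 746 to 2163 CPM. Of all genes that averaged at least 10 CPM, 20.6% were higher and 20.4% lower in 6 of 6 libraries. The part of such RNA in the members' levels was not tested.

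Outside the neurons the members were low. In nonneuronal cells Cdhr1 averaged 14.2 ± 3.99 CPM, Slc17a7 18.9 ± 5.18 CPM and Reln 12.3 ± 1.48 CPM over 6 libraries, and Eomes, Tbx21, Tbr1 and Slc17a6 each averaged between 0.966 and 3.07 CPM. Tbx21 was less even than its mean, since 12 UMIs in the monocyte cluster (Mono) gave 8.48 CPM pooled, with a counting interval of 4.38 to 14.8 CPM. In the other neurons Cdhr1 averaged 21.2 ± 6.57 CPM, Slc17a7 32.9 ± 9.41 CPM and Reln 29.5 ± 7.24 CPM, so the low levels of Cdhr1 and Slc17a7 in most interneuron clusters lie near those of cells that should lack them.

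M/T cells made up 6.07% and 6.79% of annotated neurons for control 1 and 2, 6.27% and 4.25% for the occluded pair and 3.92% and 4.47% for the trained pair. The trained libraries were both below both controls, at 4.19 ± 0.388% against 6.43 ± 0.508% (SD, n = 2 each). With 2 libraries against 2 the smallest p of the two-sided exact permutation test is 0.333, which is the value found (a difference of -2.24 percentage points). With all annotated cells as the total the difference was -0.85 points. With cells of at least 1000 UMIs it was -1.11 points (3.88 ± 0.207% against 4.99 ± 1.07%). For naris occlusion the difference was -1.17 points (exact permutation p = 0.667). With this test neither comparison could pass a threshold of 0.05.

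The comparison of naris occluded with control M/T cells asked whether the identity genes depend on sensory input. No member passed the test, in which 24 of 5765 genes, 0.416%, were called (5 higher and 19 lower, edgeR's quasi-likelihood test, Benjamini-Hochberg adjusted p under 0.05). Of the 7 members, 6 passed the filter on low counts, and Tbx21 (45 UMIs) did not and has no test. Slc17a7 in M/T cells was 1982 and 1948 CPM in control and 1444 and 1447 CPM in naris occluded libraries, with no overlap, and its log2 fold change of -0.53 ± 0.20 (SE) had an unadjusted edgeR p of 0.0109 and an adjusted p of 0.337. Cdhr1 was 2140 and 1955 CPM in control and 1466 and 1745 CPM in naris occluded libraries, again with no overlap (log2 fold change -0.44 ± 0.21, adjusted p = 0.479 in edgeR). Eomes went the other way, with 234 and 221 CPM in control and 318 and 334 CPM in naris occluded libraries (0.42 ± 0.25, adjusted p = 0.650 in edgeR).

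Among the 6 tested members, 2 were below both controls and 1 was above both, against 14% and 25.3% of all genes tested, so such separation was common. Tbr1 was 63.0 and 53.7 CPM in control and 54.1 and 73.4 CPM in naris occluded libraries, Slc17a6 144 and 117 against 93.1 and 139 CPM, and Reln 1271 and 1276 against 1063 and 1292 CPM, all overlapping. Their adjusted p-values in edgeR were 0.997, 0.790 and 0.838. Tbx21 was 13.1 and 22.1 CPM in control and 43.3 and 20.4 CPM in naris occluded libraries.

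Within the N15 cells of n17 alone, an alternative added after seeing the data, the log2 fold changes of Slc17a7 and Cdhr1 for naris occlusion were -0.09 and -0.02, while within the N14 cells alone they were -0.48 and -0.29. In n15 alone they were -0.53 and -1.02, in n16 alone -1.15 and -1.05, and in n17 alone -0.54 and -0.42. None of these passed the test, with adjusted p of 0.302 to 0.997 in edgeR. Eomes was at 0.76 in n17 alone (adjusted p = 0.248 in edgeR), 0.25 in its N14 cells and 0.34 in its N15 cells. Also within N14 cells, that of Tbr1 was -1.23 (adjusted p = 0.925 in edgeR). The Tbr1 values behind the last were 267 and 159 CPM in control and 87.6 and 89.5 CPM in naris occluded libraries. With cells that had a Gad1, Gad2 or Slc32a1 UMI left out, Slc17a7 passed the threshold (log2 fold change -0.74, adjusted p = 0.0430 in edgeR), in a fit that called 58 of 3699 genes, 1.57%. This kept 719 of 1133 M/T cells. A deeper cell more often shows such a UMI, so depth and the N14 share can move with this filter, and their part was not tested. Sensory neuron markers in M/T cells summed to 1872 and 1863 CPM in control and 949 and 746 CPM in naris occluded libraries. Of these sums S100a5, described below, was 1019 and 1178 CPM in control and 411 and 171 CPM in naris occluded libraries. Interneuron markers summed to 1061 and 925 against 678 and 620 CPM, and macroglia markers to 2791 and 3170 against 2133 and 2678 CPM. Immune, vessel and blood markers overlapped, at 470 and 954 against 316 and 595 CPM. The part of these markers in the values of Slc17a7 and Cdhr1 was not tested.

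Of the other genes named by the rule, 5 were called in naris occluded M/T cells by edgeR, and none of them by DESeq2 (adjusted p of 0.130 to 1.00). Neurod1 rose (log2 fold change 1.81 ± 0.32, edgeR adjusted p = 0.000496), as 1 of 4 tested projection neuron factors. Without control replicate 1 its adjusted p was 0.0587, and the cells of n16, where Neurod1 and Eomes are highest, were 9.29% and 9.05% of M/T cells in control and 11.8% and 14.5% in naris occluded libraries, whose part in these values was not tested. S100a5, a calcium-binding protein of sensory neurons whose level is known to follow odor input, fell by 1.95 ± 0.26 on the log2 scale (edgeR adjusted p = 6.68e-07), as 1 of 3 tested sensory markers. It was at 1019 and 1178 CPM in control and 411 and 171 CPM in naris occluded M/T cells, against a mean of 20491 CPM in n01-OSNs. Over all other neurons, n01 among them, S100a5 averaged 1655 ± 800 CPM, and M/T cells were higher in 0 of 6 libraries. Leaving out any 1 library kept its call, and in single clusters its log2 fold change was -2.15 in n17 (adjusted p = 4.83e-05 in edgeR), -1.30 in n16 (0.337) and -0.23 in n15 (0.972). Within the N14 cells of n17 alone S100a5 was not called (adjusted p = 0.994 in edgeR). Slc38a1 fell by 0.90 ± 0.22 (edgeR adjusted p = 0.0345), a call lost without either control replicate (adjusted p of 0.404 and 0.105) and without naris occluded replicate 2 (0.0521). Hba-a1, alpha globin of red blood cells, fell by 5.09 ± 0.64 (edgeR adjusted p = 2.93e-07). That fall rests on control 2, with 175 UMIs (553 CPM) against 14 in control 1 (36.8 CPM) and 3 in each naris occluded library, and without control replicate 2 Hba-a1 did not pass the filter on low counts. Adcyap1, among the genes most like Cdhr1 and Slc17a7, fell by 1.36 ± 0.29 (edgeR adjusted p = 0.00617), but not past the threshold without control replicate 1. Over the alternatives its log2 fold change ran from -1.72 to -0.35. In the N14 cells of n17 alone Adcyap1 was not called (adjusted p = 0.994 in edgeR). None of the 17 projection effectors, 14 tested reelin pathway genes and 8 tested interneuron markers passed, and the list medians of -0.07, 0.04 and -0.64 stood beside 0.01 over all genes.

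Olfactory training, compared with the same control libraries, called 7 of 5765 genes, 0.121%, all of them lower and none of them members. Cdhr1 was 1702 and 1651 CPM in trained libraries, below the 2140 and 1955 CPM of controls (log2 fold change -0.32 ± 0.21, adjusted p = 0.797 in edgeR). Slc17a7 was 1573 and 1758 CPM, below 1982 and 1948 CPM (-0.27 ± 0.20, adjusted p = 0.838 in edgeR). Slc17a6 (110 and 102 CPM) and Reln (1047 and 1190 CPM) were also below both controls, and Tbr1 (64.3 and 85.8 CPM) was above both. In all, 4 of the 6 tested members were below both controls and 1 above, against 17% and 20.6% of all genes tested. The cells of n15, which have less Cdhr1 and Slc17a7 than n17, were 11.6% and 16.1% of M/T cells in the trained libraries and 2.97% and 7.62% in controls. Interneuron markers in M/T cells summed to 1161 and 1372 CPM in trained and 1061 and 925 CPM in control libraries. Immune, vessel and blood markers summed to 246 and 263 against 470 and 954 CPM, and macroglia markers to 2609 and 2337 against 2791 and 3170 CPM. Sensory neuron markers overlapped, at 2163 and 943 against 1872 and 1863 CPM. The part of these in the members' values was not tested. Eomes was 310 and 123 CPM in the trained libraries and its log2 fold change was -0.04 ± 0.27 (adjusted p = 0.993 in edgeR). Among the listed genes Nefh, the heavy neurofilament chain, fell by 2.44 ± 0.56 (edgeR adjusted p = 0.0361) and Hba-a1 fell by 4.96 ± 0.72 (edgeR adjusted p = 8.64e-06), while DESeq2 called neither. Hba-a1 had 0 and 4 UMIs in the trained libraries, so this fall too rests on control 2. The Nefh call was lost without control replicate 2 (adjusted p = 0.548), olfactory trained replicate 1 (0.101) or olfactory trained replicate 2 (0.131).

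**Figure D5:**
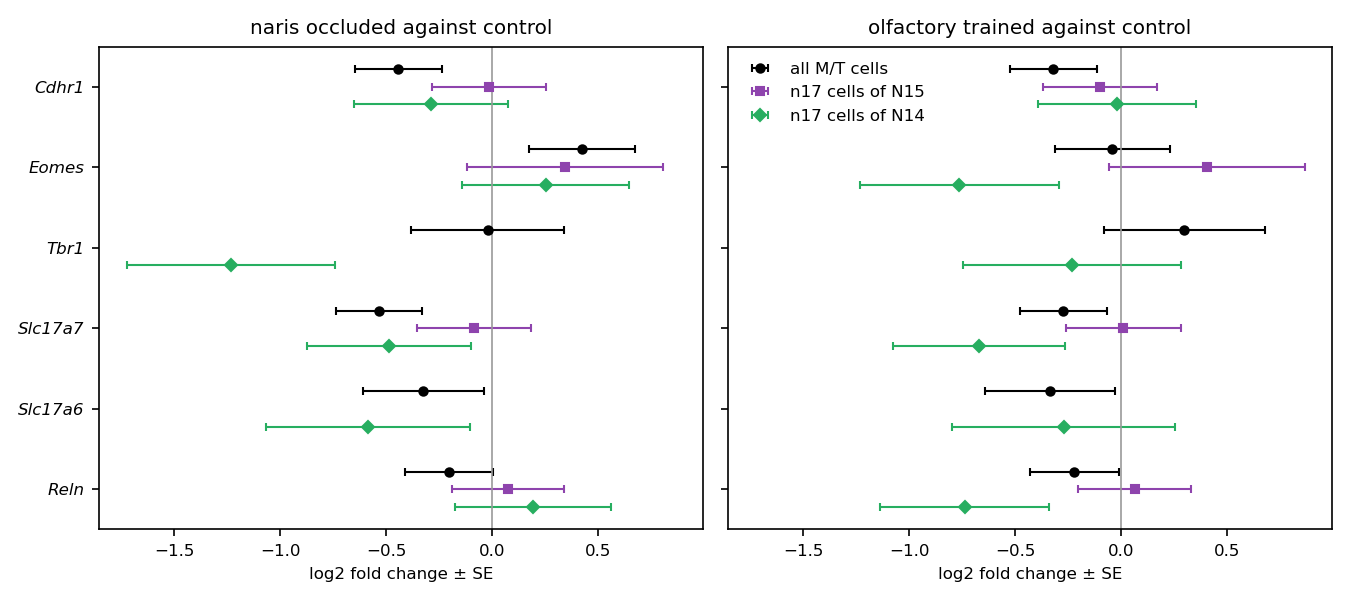
log2 fold change ± SE of each tested member in M/T cells, naris occluded or olfactory trained against control, for all M/T cells and for the N14 and N15 cells of n17 alone. Every adjusted p is above 0.05. Tbr1 and Slc17a6 are missing for N15 cells and Tbx21 throughout, since too few UMIs passed the filter.

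In n01-OSNs, the sensory neurons that feed M/T cells, the members were rare, and 1 of the 7 (Slc17a7, 79 UMIs) passed the filter. It was not called for naris occlusion (log2 fold change -0.40 ± 0.43, adjusted p = 0.958 in edgeR), where 5 of 1741 genes, 0.287%, were called, nor for training (-0.64 ± 0.42, adjusted p = 0.944 in edgeR), where 0 were called by edgeR and 0 by DESeq2, with 84 genes at an unadjusted edgeR p under 0.05. Slc17a6, the transporter that sensory neurons use, had 5 UMIs in 3 of 1200 cells, all in control 1. The n01 cells were shallow, with a median of 808.5 UMIs, 69% of cells under 1000 UMIs and a median of 39.0% mitochondrial. In n08-PGC-3, Reln had log2 fold changes of 0.01 ± 0.24 for naris occlusion (adjusted p = 0.9997 in edgeR) and -0.25 ± 0.26 for training (adjusted p = 0.999 in edgeR), in a cluster where 0.0979% and 0.049% of 2042 genes were called.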

How the data were processed

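Droplet-based 3′ single-cell libraries of 6 pools of mice were aligned to mm10 with Cell Ranger 2.0.0 and clustered with Seurat 2.2.1, per the submitters' processing notes, and the study kept cells with at least 200 genes. The deposited table holds the authors' raw UMI counts per gene and barcode, and the deposited cell annotation gives the library, the clusters of 2 annotations and a mitochondrial fraction, which was used only as a measure of RNA quality. Cell names of the trained libraries start with the opposite replicate number to the library field, and the library field was used. Clusters were taken as deposited, with no doublet removal of their own here.

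Counts were summed per cluster and library and divided by all UMIs of those cells (CPM). Conditions were compared on these sums with edgeR 4.0.16 in R 4.3.3 (TMM factors, filterByExpr, quasi-likelihood test, all 6 libraries, no block, Benjamini-Hochberg adjustment over all genes tested, threshold 0.05), after testing on simulated data. SE is the log2 fold change divided by its t statistic. DESeq2 1.42.0 was an alternative. Shares of cells were compared by a two-sided exact permutation test in scipy 1.17.1. To compare shares across depths, cells were thinned to 500 UMIs, leaving out shallower cells. Intervals are exact Poisson at 95%, floors are 3 counts, and both cover counting error only. Promoters are RefSeq windows of 250 bases upstream of the start.

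The study compared conditions by a chi-square test on the cell counts of adult-born clusters, M/T clusters left out, and by lineage tracing. Cells of 1 library are not replicates, so sums per library were tested here, and p-values measure the spread between 2 pools per condition. Named were the 7 members, the 3 genes most like each over the 18 neuronal clusters (at least 50 CPM in 1 cluster) and, from each list, those that passed a test, otherwise up to 4 with the highest level in M/T cells. Doc2g, Shisa3 and the GABA markers come from the list of cell type markers, and Cck, Olfm1, Ntng1, Lmo3, Dab1 and Lrp8 were named outside this rule, after their values were seen. The members and lists were chosen with earlier results of these data known. The fits to N14 and N15 cells, to Reln in n08-PGC-3 and the paired shares were added after seeing the data.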

Additional observations from a re-analysis of the deposited data

Results flagged for a closer look

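Replicate 1 of each condition was male and replicate 2 female, and 6 pairs of log2 ratios of CPM + 1 against the control library of the same sex pointed opposite ways in males and females. For naris occlusion in M/T cells the male and female ratios were -0.22 and 0.44 for Tbr1, -0.63 and 0.24 for Slc17a6, -0.26 and 0.019 for Reln, and 1.65 and -0.11 for Tbx21. For olfactory training they were 0.41 and -0.84 for Eomes and -0.19 and 0.27 for Tbx21, which had 45 UMIs in all M/T cells. These differences were not tested, since there is 1 library per sex and condition. For the trained libraries the sex rests on the library field, while their cell names start with the opposite replicate number.

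Members were also counted in cells the comparisons did not use. In the 755 neurons that the second annotation left out, pooled levels were 37.6 CPM for Cdhr1, 9.10 for Eomes, 1.65 for Tbr1, 76.5 for Slc17a7, 3.72 for Slc17a6 and 69.9 for Reln. In the 1123 barcodes without a cluster they were 15.2 CPM for Cdhr1, 5.30 for Eomes, 1.66 for Tbr1, 30.5 for Slc17a7 and 27.8 for Reln.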

How the results depend on the processing

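Of 232 values of the members' log2 fold changes under alternatives, 209 kept their direction and side of the threshold, 22 changed sign and 1 became significant (Slc17a7 for naris occlusion in cells without a Gad1, Gad2 or Slc32a1 UMI, -0.74, edgeR adjusted p = 0.0430). None of those that changed sign passed the threshold, and the causes were not tested. For naris occlusion, Eomes was -0.00076 in n16 alone, Tbr1 was 0.0098 with DESeq2 and 0.083 without scaling, and Reln was 0.19 in the N14 and 0.075 in the N15 cells of n17. For training, Eomes was 0.14 in n16, 0.35 without GABA-marker cells and 0.40 in N15 cells, Tbr1 -0.57 without GABA-marker cells and -0.23 in N14 cells, Slc17a7 0.10 in n15, 0.10 in n16 and 0.010 in N15 cells, and Reln 0.11 in n15 and 0.063 in N15 cells. Leaving out 1 library at a time gave for naris occlusion -0.21 to 0.25 for Tbr1, -0.59 to 0.0092 for Slc17a6, -0.12 to 0.17 for Reln in n08 and a highest value of 0.17 for Slc17a7 in n01 (without control replicate 1, lowest -0.74), and for training -0.99 to 0.44 for Eomes. Slc38a1 was 0.0079 in n15 alone for naris occlusion. Of 210 values of the members' levels in the M/T clusters under alternatives, 197 stayed within 1 SD of the libraries and 13 did not, 12 of them in n17 and 6 under the mean of single-cell CPM. There Cdhr1 was 2519, Slc17a7 2422, Reln 1785, Tbr1 34.98 and Slc17a6 59.5 CPM in n17, and Reln 50.03 CPM in n16.

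The counts of called genes were less stable. In M/T cells, naris occlusion called 4 genes with DESeq2, 4 with cells of at least 1000 UMIs, 0 in n15, 6 in n16, 58 without GABA-marker cells, 2 in N14 cells and 1 in N15 cells, and training called 2, 2, 0, 0, 2, 2 and 4, as well as 17 with no filter. In n01 the counts for naris occlusion were 1 with DESeq2, 3 without scaling, 2 with no filter and 3 with cells of at least 1000 UMIs, and for training 1 with no filter and 3 with cells of at least 1000 UMIs. Leaving out 1 library gave 20 to 75 for naris occlusion in M/T cells (75 without naris occluded replicate 2), 8 to 34 for training (34 without naris occluded replicate 1), and 0 to 7 and 0 to 8 in n01. With the replicate block, training called 15 genes, naris occlusion 26, and no member's call changed. Same-numbered libraries deviated together by r of -0.03 to 0.08 in M/T cells, 0.06 to 0.11 in n01 and 0.03 to 0.09 in n08-PGC-3. Since such an r mixes counting error with any shared deviation, it cannot tell whether they shared more than a number and sex.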
